A study of Mus musculus with 5 samples.

Results

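Airway club and mucous secretory genes are described here as 9 genes, Scgb1a1, Scgb3a1, Scgb3a2, Cyp2f2, Bpifa1, Muc5b, Clca1, Chia1 and Cldn10, whose rows were taken by symbol from a table of 54532 genes. RNA-seq counts came from 5 mouse lung tumours of small cell lung cancer, a cancer of neuroendocrine cells. The labels give the tumours the genotype RPP, which they do not expand and which both groups share, and a treatment of LSN for 3 tumours and Vehicle for 2. Per the series, the treatment blocked Aurora A kinase, which builds the mitotic spindle. Dose, duration, age and strain are not stated in the labels. Per the sample labels, the tumours were flash-frozen at necropsy, whereas the series text speaks of primary cells, and which holds cannot be told here. Nothing says whether each tumour came from a separate animal. The p-values therefore measure the spread between these samples, which may be technical. The 9 genes were chosen with the difference between LSN and vehicle tumours already known, so their values in that contrast are a description, with no test. The other gene lists were also chosen with earlier results of these data known. Counts of their genes are thus no independent support.

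Club cells are the dome-shaped secretory cells of the small airways. They release secretoglobins, metabolise inhaled compounds with cytochrome P450 enzymes and can renew the airway lining. Mucous (goblet) cells release the gel-forming mucins that trap particles, together with proteins that shape the mucus. In a mouse lung these cells line the airways, apart from the alveoli where gas exchange takes place. A bulk sample of tumour tissue holds RNA of every cell in the piece, and fewer cells of a type cannot be told apart from less RNA of its genes per cell.

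All 9 genes had lower group means in LSN tumours than in vehicle tumours, and LSN replicate 2 held almost none of their RNA. Together they had 1057 CPM in LSN replicate 1, 6.43 CPM in LSN replicate 2 and 315 CPM in LSN replicate 3, against 5983 and 2778 CPM in vehicle replicates 1 and 2. CPM is the count scaled to the size of the library, here corrected by TMM for differences in composition. Every LSN tumour lay below both vehicle tumours in this sum, and the highest tumour was 930.3-fold above the lowest. In counts, the sums were 19148, 120 and 5955 in LSN replicates 1, 2 and 3, against 111243 and 49756 in vehicle replicates 1 and 2. The 120 counts of LSN replicate 2 had an exact Poisson interval at 95% of 5.33 to 7.69 CPM, which covers counting error and nothing else. Without Scgb1a1, the most abundant gene, the other 8 genes summed to 629, 4.29 and 91.4 CPM in LSN replicates 1, 2 and 3, against 2295 and 465 CPM in vehicle replicates 1 and 2, so that LSN replicate 1 then lay between the vehicle tumours. The mean log2 sum of the 9 genes differed by -4.98 between LSN and vehicle tumours, and by -2.82 without LSN replicate 2.

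**Figure D1:**
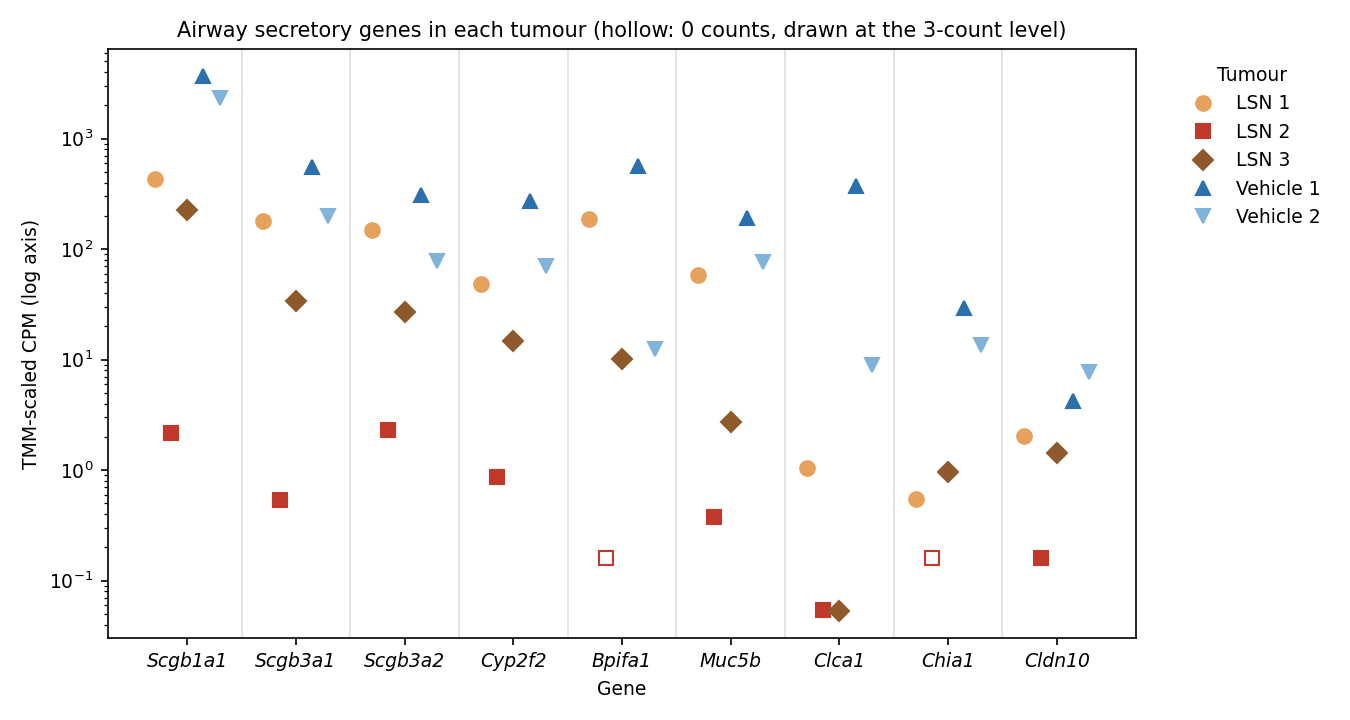
TMM-scaled CPM (log axis) of each of the 9 genes (columns) in each tumour, with LSN 1 to 3 to the left of Vehicle 1 and 2; the numbers are replicate numbers, and hollow symbols mark 0 counts, drawn at the level of 3 counts. LSN 2 is lowest or shares the lowest count for all 9 genes, and Vehicle 1 is highest for 8.

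Total counts lay between 17439049 and 19766604 per tumour, and the floor used here, 3 counts, was worth 0.159 to 0.167 CPM. The fit of edgeR's quasi-likelihood test called 0 of 17906 tested genes (0%) past a Benjamini-Hochberg adjusted p of 0.05, and no adjusted p was below 0.9996. Unadjusted, 574 genes were lower (3.21%) and 190 higher (1.06%) in LSN tumours with p under 0.05. DESeq2 called 105 genes of 17346 with an adjusted p (0.605%). The label of a neuroendocrine tumour was checked on 7 marker genes such as Chga and Syp, which summed to 3193, 3367 and 2470.4 CPM in LSN replicates 1, 2 and 3, against 4469 and 1793 CPM in vehicle replicates 1 and 2. These markers were present in every tumour, and their sum overlapped between the groups. Singly, Syp was higher and Uchl1 lower in every LSN tumour. Chga and Calca differed 8.58-fold and 25.7-fold between the vehicle tumours. All 9 secretory genes passed the filter on low counts.

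Upstream of each RefSeq gene start, a window of 250 bases before and 50 after it was at hand for 5 of the 9 genes, in build GRCm38.p6, with 2 windows for Cldn10. The windows of 2 genes of club cells and of 2 secreted defence genes are shown, and those of Cldn10 are not printed. These genes were low in LSN replicate 2, as all 9 were, so their levels there do not set them apart. Capitals mark matches to the letters searched, on the strand of the gene. The Scgb3a1 window is chr11:49663345-49663644, that of Cyp2f2 chr7:27119705-27120004, that of Bpifa1 chr2:154142630-154142929 and that of Chia1 chr3:106113132-106113431, all on the plus strand.
Scgb3a1: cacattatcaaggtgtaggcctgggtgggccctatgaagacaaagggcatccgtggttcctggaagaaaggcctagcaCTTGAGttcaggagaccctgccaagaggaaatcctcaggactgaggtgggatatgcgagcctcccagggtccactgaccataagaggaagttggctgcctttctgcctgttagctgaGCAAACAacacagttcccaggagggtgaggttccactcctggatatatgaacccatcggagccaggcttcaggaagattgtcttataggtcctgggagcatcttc
Cyp2f2: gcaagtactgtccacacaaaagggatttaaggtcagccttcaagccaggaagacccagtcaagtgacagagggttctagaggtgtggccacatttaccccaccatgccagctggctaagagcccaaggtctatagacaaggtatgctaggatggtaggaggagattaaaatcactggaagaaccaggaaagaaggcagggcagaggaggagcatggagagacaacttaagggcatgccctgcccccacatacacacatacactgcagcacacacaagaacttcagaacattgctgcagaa
Bpifa1: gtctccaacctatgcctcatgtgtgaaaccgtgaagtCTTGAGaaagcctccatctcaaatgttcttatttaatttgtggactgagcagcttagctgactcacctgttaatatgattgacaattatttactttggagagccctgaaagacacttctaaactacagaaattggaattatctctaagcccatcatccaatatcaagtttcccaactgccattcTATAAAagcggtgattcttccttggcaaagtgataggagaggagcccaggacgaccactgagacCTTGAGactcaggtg
Chia1: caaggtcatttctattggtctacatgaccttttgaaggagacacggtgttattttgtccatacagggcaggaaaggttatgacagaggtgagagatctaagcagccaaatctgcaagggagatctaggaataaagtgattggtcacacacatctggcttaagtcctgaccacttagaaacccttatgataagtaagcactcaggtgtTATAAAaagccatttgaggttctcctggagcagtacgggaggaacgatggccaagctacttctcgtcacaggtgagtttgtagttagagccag

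The motifs searched were those of FOXA (TGTTTNC) and NKX2-1 (CTCAAG), factors of lung epithelium, and of C/EBP (TTGCNNAA), each on both strands, and the TATA box (TATAAA) on the strand of the gene. In Scgb3a1, CTTGAG is the NKX2-1 motif read on the other strand, starting 172 bases before the gene start, and GCAAACA is the FOXA motif on the other strand, 55 bases before it. Bpifa1 held the NKX2-1 motif on the other strand at 213 bases before and 36 bases after the start, and a TATA box 29 bases before it. Chia1 held a TATA box 43 bases before the start, and the Cyp2f2 window held none of the 4 motifs. Over the 6 windows of these genes, 3 held the NKX2-1 motif, 2 the TATA box, 1 the FOXA motif and 0 the C/EBP motif. Among all 32851 windows of this length, the share was 15.9% for the NKX2-1 motif, 8.32% for the TATA box, 20.5% for the FOXA motif and 10.8% for the C/EBP motif. No matches overlapped one another, and a match describes letters in the window, not a site in use.

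Secretoglobins, small proteins that airway secretory cells release in large amounts, made up most of the counts. Scgb1a1 (chromosome 19, 9083636 to 9087958) encodes uteroglobin, the defining product of club cells. It was at 428, 2.14 and 224 CPM in LSN replicates 1, 2 and 3, against 3688 and 2313 CPM in vehicle replicates 1 and 2. The vehicle tumours were thus both above all LSN tumours, and LSN replicate 2 was 199.7-fold below LSN replicate 1. Its means were 218 ± 213 CPM in LSN tumours (SD, n = 3) and 3000.3 ± 972 CPM in vehicle tumours (SD, n = 2), with an edgeR log2 fold change of -3.78 ± 1.65 (SE). On the TPM scale, which divides counts by the deposited gene length and so allows genes to be compared, Scgb1a1 held rank 8 of all genes in LSN replicate 1, at 3282 TPM. It ranked 9330 in LSN replicate 2, at 14.1 TPM, and 35 in LSN replicate 3, at 1477 TPM. In both vehicle replicates it held rank 2, at 26925 and 16822 TPM. No other gene of the 9 reached the TPM of Scgb1a1 in any of the 5 tumours.

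Scgb3a1 (chromosome 11, 49663610 to 49665118), a secretoglobin of the larger airways, was at 179.6, 0.536 and 34.2 CPM in LSN replicates 1, 2 and 3, against 554 and 197 CPM in vehicle replicates 1 and 2. The groups did not overlap, but LSN replicate 1 came close to vehicle replicate 2. The log2 fold change was -2.40 ± 1.74 (SE), and 71.4 ± 95.2 CPM (SD, n = 3) in LSN tumours stood against 376 ± 252 CPM (SD, n = 2) in vehicle tumours. Scgb3a2 (chromosome 18, 43764289 to 43767399), a secretoglobin of club cells, was at 149, 2.30 and 27.2 CPM in LSN replicates 1, 2 and 3, against 309 and 77.65 CPM in vehicle replicates 1 and 2. Here LSN replicate 1 exceeded vehicle replicate 2, so the groups overlapped. The log2 fold change of Scgb3a2 was -1.70 ± 1.49 (SE), the smallest in size of the 9, and -0.37 without vehicle replicate 1. In LSN replicate 2, Scgb3a2 had 43 counts and Scgb1a1 40, whereas Scgb1a1 had at least 2.86 times the counts of Scgb3a2 in each of the other tumours.

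Cyp2f2 (chromosome 7, 27119909 to 27133660), a cytochrome P450 of club cells that activates naphthalene in the mouse, was at 48.6, 0.857 and 14.7 CPM in LSN replicates 1, 2 and 3, against 273 and 69.7 CPM in vehicle replicates 1 and 2. All LSN tumours were below both vehicle tumours, with a log2 fold change of -3.00 ± 1.43 (SE). Means were 21.4 ± 24.6 CPM in LSN tumours (SD, n = 3) and 172 ± 144 CPM in vehicle tumours (SD, n = 2). An antisense gene overlaps Cyp2f2, and without strand information their reads cannot be told apart, but that gene had 46 counts over all tumours against 7504 for Cyp2f2. Cldn10 (chromosome 14, 118787908 to 118875489) encodes a claudin, a protein of tight junctions, that is found in club cells. It had the lowest counts of the 9 in the vehicle tumours, with 37, 3 and 27 counts in LSN replicates 1, 2 and 3, against 78 and 137 counts in vehicle replicates 1 and 2. In CPM these were 2.04, 0.161 and 1.43 against 4.19 and 7.65. The groups did not overlap, and Cldn10 was the 1 gene of the 9 with its highest level in vehicle replicate 2. Its log2 fold change was -2.28 ± 1.04 (SE).

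Bpifa1 and Chia1 are secreted proteins of airway defence. Bpifa1 (chromosome 2, 154142880 to 154149219), which encodes the secreted protein SPLUNC1, was at 189, 0 and 10.2 CPM in LSN replicates 1, 2 and 3, against 560.2 and 12.5 CPM in vehicle replicates 1 and 2. The groups overlapped, since LSN replicate 1 exceeded vehicle replicate 2. The means were 66.4 ± 106 CPM in LSN tumours (SD, n = 3) and 286 ± 387 CPM in vehicle tumours (SD, n = 2). The log2 fold change, -2.11 ± 2.45 (SE), turned to 2.42 without vehicle replicate 1. Chia1 (chromosome 3, 106113229 to 106132120), an acidic chitinase that cuts the chitin of fungi and arthropods, had 10, 0 and 18 counts in LSN replicates 1, 2 and 3, against 547 and 243 counts in vehicle replicates 1 and 2. These counts were 0.552, 0 and 0.953 CPM against 29.4 and 13.6 CPM. No LSN tumour came near the vehicle tumours for Chia1, and it was the 1 gene of the 9 with LSN replicate 1 below LSN replicate 3. Its log2 fold change was -5.40 ± 1.38 (SE), and ranged from -6.25 to -4.73 when each tumour was left out in turn. For the count of 0 in LSN replicate 2, the floor of 3 counts was worth 0.161 CPM, and the exact Poisson interval at 95% reached 0.198 CPM for each of Bpifa1 and Chia1.

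Muc5b and Clca1 are products of mucous cells. Muc5b (chromosome 7, 141839070 to 141873084), a gel-forming mucin of the airways, was at 58.9, 0.375 and 2.70 CPM in LSN replicates 1, 2 and 3, against 193 and 77.1 CPM in vehicle replicates 1 and 2. The groups did not overlap, and LSN replicate 1 was 21.8-fold above LSN replicate 3. Means were 20.6 ± 33.1 CPM in LSN tumours (SD, n = 3) and 135 ± 81.7 CPM in vehicle tumours (SD, n = 2), with a log2 fold change of -2.71 ± 1.79 (SE). Clca1 (chromosome 3, 145003817 to 145032776), a secreted protein of goblet cells that processes mucus, had 19, 1 and 1 counts in LSN replicates 1, 2 and 3, against 6925 and 161 counts in vehicle replicates 1 and 2. In CPM it was at 1.05, 0.0536 and 0.0529 against 372 and 8.99. Every LSN tumour was below both vehicle tumours, and the vehicle tumours themselves differed 41.4-fold. The log2 fold change of -8.94 ± 2.04 (SE) was the largest in size of the 9 and became -4.52 without vehicle replicate 1. In LSN replicate 1 Clca1 was at 1.01 TPM and Muc5b at 14.4 TPM, against 343 and 44.7 TPM in vehicle replicate 1 and 8.24 and 17.8 TPM in vehicle replicate 2. Per length, Clca1 was thus above Muc5b in vehicle replicate 1 and below it in the other 4 tumours.

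In total, 7 of the 9 were below both vehicle tumours in every LSN tumour, where 10.4% of all tested genes were, and Scgb3a2 and Bpifa1 overlapped. In the other direction, 0 of the 9 were above both vehicle tumours in every LSN tumour, where 8.48% of all tested genes were. The 9 were selected on this contrast, so nothing is read from that count. Their median log2 fold change was -2.71, beside 0.034 for all tested genes. Without LSN replicate 1 the median was -4.74 and all 9 genes separated the groups. Fewer tumours make such separation easier, and the share of all tested genes that separated in that setting was not computed. The log2 fold changes of Scgb3a1, Scgb3a2, Bpifa1 and Muc5b were -4.44, -3.71, -5.82 and -6.45 without LSN replicate 1. Without vehicle replicate 1, those of Scgb3a1 and Cyp2f2 were -1.46 and -1.70. Among LSN tumours, 8 of the 9 genes were higher in replicate 1 than in replicate 3, the exception being Chia1. In LSN replicate 2, 4 of the 9 genes were at or under 3 counts.

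The make-up of the secretory counts differed between tumours of the same group. Scgb1a1 took 40.5%, 33.3% and 71.0% of the summed counts in LSN replicates 1, 2 and 3, against 61.6% and 83.3% in vehicle replicates 1 and 2. The Wilson intervals at 95% were 39.8 to 41.2%, 25.5 to 42.2% and 69.9 to 72.2% in the LSN tumours, and 61.3 to 61.9% and 82.9 to 83.6% in the vehicle tumours. These shares overlapped between the groups. They differed between tumours by more than counting error, except between LSN replicates 1 and 2, whose intervals overlapped. Bpifa1 took 17.9% in LSN replicate 1 and 3.22% in LSN replicate 3, against 9.36% and 0.450% in vehicle replicates 1 and 2. In LSN replicate 2 its share was 0 of 120 counts, with an upper Wilson bound of 3.10%. Clca1 took 0.0992% in LSN replicate 1, 0.833% in LSN replicate 2, where it had 1 count, and 0.0168% in LSN replicate 3, against 6.23% and 0.324% in vehicle replicates 1 and 2. Vehicle replicate 1 was therefore richest in Clca1, and LSN replicate 1 in Bpifa1.

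**Figure D2:**
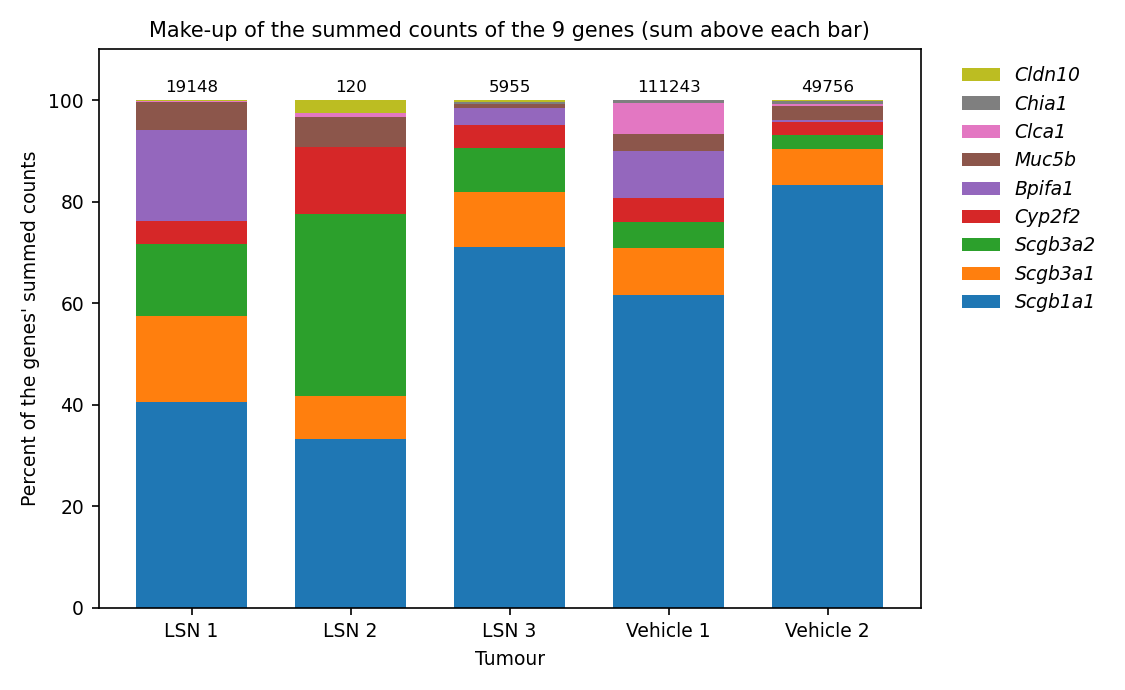
Percent of the summed counts of the 9 genes that each gene took (stacked bars, y axis) in each tumour (x axis), with the summed count above each bar. Scgb1a1 spans 33.3 to 83.3%, and the bar of LSN 2 rests on 120 counts.

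Other club cell genes, a list of 21, were mostly lower in LSN tumours on average. Since this list and those below were chosen with earlier results known, the shares of all tested genes beside their counts are for scale only. Of these, 20 had a log2 fold change below 0, where 46.8% of all tested genes did, and the list median was -2.53. By edgeR 0 passed the adjusted threshold, 12 were lower and 0 higher at an unadjusted p under 0.05, and 14 were lower in every LSN tumour, beside 3.21% and 10.4% of all tested genes that were lower by these measures. The 12 became 4 without vehicle replicate 1 and 5 when LSN replicate 3 was left out. Pigr, the receptor that carries IgA and IgM across epithelium, was at 38.6, 16.6 and 22.7 CPM in LSN replicates 1, 2 and 3, against 116 and 114 CPM in vehicle replicates 1 and 2. The vehicle tumours were close to each other, and the log2 fold change was -2.15 ± 0.40 (SE; edgeR adjusted p = 0.9996, DESeq2 adjusted p = 0.0110). Cyp2s1, another cytochrome P450, was at 8.12, 1.13 and 4.50 CPM in LSN replicates 1, 2 and 3, against 39.2 and 40.7 CPM in vehicle replicates 1 and 2 (DESeq2, adjusted p = 0.0315). Both were again lower in all LSN tumours. Cbr2, a carbonyl reductase abundant in mouse club cells, was at 123, 4.82 and 40.2 CPM in LSN replicates 1, 2 and 3, against 476 and 225 CPM in vehicle replicates 1 and 2, with the tumours in the same order as for Scgb1a1. Aldh1a1, which makes retinoic acid, was at 36.1, 19.9 and 59.0 CPM in LSN replicates 1, 2 and 3, against 349.7 and 63.4 CPM in vehicle replicates 1 and 2. The other gene DESeq2 called in this list, Cyp2a5 (adjusted p = 0.0477), was named after its values were seen. It was at 1.21, 3.48 and 1.16 CPM in LSN tumours and at 85.6 and 2.51 CPM in vehicle tumours, so that vehicle replicate 1 alone was high. As a list, the 21 genes summed to 557, 250 and 441 CPM in LSN replicates 1, 2 and 3. Vehicle replicates 1 and 2 had 1923 and 1286 CPM, and the range over all tumours was 7.68-fold. In LSN replicate 2, Por and Wfdc2, named after their values were seen, were at 92.4 and 62.7 CPM.

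Other mucous cell genes numbered 20, of which 15 were tested, all with a log2 fold change below 0 and a median of -2.09. At an unadjusted p under 0.05 edgeR found 5 lower and 0 higher, 0 passed the adjusted threshold, and 8 were lower in every LSN tumour, beside the same 3.21% and 10.4%. The 5 became 1 without vehicle replicate 1 or LSN replicate 3 and 3 when LSN replicate 2 was left out. Leaving out LSN replicate 1 made them 9 and the median -4.03. Muc5ac, the mucin that mouse goblet cells add on irritation or allergy, had 18, 0 and 2 counts in LSN replicates 1, 2 and 3, against 538 and 60 counts in vehicle replicates 1 and 2. By length it stayed under Muc5b in every tumour, at most 9.35 TPM in vehicle replicate 1. Fcgbp, a mucus protein that binds IgG, was at 3.37, 0.268 and 0.318 CPM in LSN replicates 1, 2 and 3, against 46.9 and 8.71 CPM in vehicle replicates 1 and 2. Both genes were highest in vehicle replicate 1, as Clca1 was. Slc26a4, an anion exchanger, was at 1.38, 0.268 and 1.06 CPM in LSN replicates 1, 2 and 3, against 6.78 and 11.3 CPM in vehicle replicates 1 and 2, and DESeq2 called it (adjusted p = 0.0110). Bpifb1, a relative of Bpifa1 from the same chromosome, was at 77.4, 0.536 and 4.08 CPM in LSN replicates 1, 2 and 3, against 491 and 49.2 CPM in vehicle replicates 1 and 2. Bpifb1 overlapped between the groups in the way Bpifa1 did, with LSN replicate 1 above vehicle replicate 2. As a list, the 20 genes summed to 304, 136 and 125 CPM in LSN replicates 1, 2 and 3. Vehicle replicates 1 and 2 had 1204 and 309 CPM, and the range over all tumours was 9.66-fold. In LSN replicate 2, Muc1, named after its values were seen, was at 99.9 CPM.

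Transcription factors of airway epithelium overlapped between the groups for 11 of the 12 listed, the exception being Hes1, a Notch target named after its values were seen. Hes1 was lower in every LSN tumour, as were 10.4% of all tested genes, while 8.48% were higher in every LSN tumour. Most tested genes thus also overlapped, so nothing particular to these factors is read from the count. At an unadjusted p under 0.05 by edgeR, 3.21% of all tested genes were lower and 1.06% higher. Of the 12 factors, 11 were tested, 7 had a log2 fold change below 0, and 0 reached an unadjusted p under 0.05 by edgeR in either direction. The median was -0.36, -0.85 without LSN replicate 3, -0.13 without LSN replicate 1 and -0.14 without vehicle replicate 2. Nkx2-1, a lung lineage factor also made by small cell lung cancer, was at 243, 109 and 515 CPM in LSN replicates 1, 2 and 3, against 266 and 479 CPM in vehicle replicates 1 and 2. Foxa2, a pioneer factor of endoderm, was at 150.1, 360.1 and 276 CPM in LSN replicates 1, 2 and 3, against 221 and 133 CPM in vehicle replicates 1 and 2. LSN replicate 2 thus had the highest Foxa2 level and the lowest secretory gene sum. Spdef, the factor of goblet cells, was at 0.221, 1.02 and 0.318 CPM in LSN replicates 1, 2 and 3, against 1.99 and 0.949 CPM in vehicle replicates 1 and 2. Cebpa, a factor of lung epithelial differentiation, was at 24.0, 17.7 and 43.9 CPM in LSN replicates 1, 2 and 3, against 35.3 and 65.1 CPM in vehicle replicates 1 and 2. In each of these 4 factors at least 1 LSN tumour lay above a vehicle tumour.

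Il13 and Il5, type 2 cytokines of allergic airways, where interleukin 13 raises Clca1 and Muc5ac, were at or near 0. Il13 had 1 count, in vehicle replicate 2, and Il5 had 1 count in each of the LSN tumours and in vehicle replicate 1. Il4, another cytokine of the list, was present in every tumour, with 130, 58 and 92 counts in LSN replicates 1, 2 and 3, against 61 and 108 counts in vehicle replicates 1 and 2, and overlapped between the groups. These 3 were named after their values were seen. Of 12 genes of that pathway 8 were tested, 6 of them below 0, with a median of -0.89. At an unadjusted p under 0.05 by edgeR, 3.21% of all tested genes were lower and 1.06% higher. In this list edgeR found 0 past the adjusted threshold and 3 lower and 0 higher at that unadjusted p. That number was 0 without vehicle replicate 2 and 1 without vehicle replicate 1 or LSN replicate 3. Il33, an alarmin of epithelial and other barrier cells, was at 11.8, 5.84 and 9.16 CPM in LSN replicates 1, 2 and 3, against 25.1 and 99.0 CPM in vehicle replicates 1 and 2 (DESeq2, adjusted p = 0.0273). Il33 was lower in every LSN tumour but highest in vehicle replicate 2, unlike Clca1. Il13ra1, a receptor chain for interleukin 13, was at 15.7, 19.8 and 13.9 CPM in LSN replicates 1, 2 and 3, against 31.8 and 31.0 CPM in vehicle replicates 1 and 2. Retnla, the other gene of this list lower at that unadjusted p, was lower in every LSN tumour. It was at 57.1, 0.697 and 9.69 CPM in LSN tumours, against 335 and 585 CPM in vehicle tumours. Its log2 fold change, -4.35 ± 1.54 (SE), was the largest in size of the 8. Without vehicle replicate 2 the median of this list was 0.053.

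Relatives of Chia1, Clca1 and Cldn10 varied in direction. Among chitinase-like genes, 4 of 7 were tested, with 3 below 0. Chil4, a chitinase-like protein of mouse airways, had 35, 0 and 1 counts in LSN replicates 1, 2 and 3, against 349 and 275 counts in vehicle replicates 1 and 2. Chil1, a chitin-binding protein without enzyme activity, was at 64.1, 23.4 and 65.2 CPM in LSN replicates 1, 2 and 3, against 159 and 408 CPM in vehicle replicates 1 and 2. Both were lower in every LSN tumour, and edgeR gave each an unadjusted p under 0.05 and an adjusted p of 0.9996. Among 4 tested CLCA genes, the log2 fold change was -2.44 ± 1.13 (SE) for Clca2, which had low counts, and 1.95 ± 1.43 (SE) for Clca3a2. Clca3b, named after its values were seen, was at 586, 1251 and 95.4 CPM in LSN replicates 1, 2 and 3, against 409.98 and 17.2 CPM in vehicle replicates 1 and 2. Of the tumours with 1 count of Clca1, LSN replicate 2 had the highest Clca3b level of all 5 and LSN replicate 3 the second lowest. Reads of these related genes may be shared in part. Of 10 tested claudins 4 were below 0. Cldn2, a claudin that forms cation channels, was at 0.994, 0.268 and 0.265 CPM in LSN replicates 1, 2 and 3, against 2.85 and 4.86 CPM in vehicle replicates 1 and 2. Cldn18, whose lung form is made by alveolar cells, was at 53.8, 13.1 and 23.8 CPM in LSN replicates 1, 2 and 3, against 59.2 and 151 CPM in vehicle replicates 1 and 2. For the chitinase-like genes, the CLCA genes and the claudins, edgeR called 0 at the adjusted threshold. There were 2, 0 and 2 lower at an unadjusted p under 0.05, beside 3.21% of all tested genes. Each 2 became 0 without vehicle replicate 2, 1 when LSN replicate 2 was left out, and also 1 for chitinase-like genes without vehicle replicate 1 and for claudins without LSN replicate 3.

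**Figure D3:**
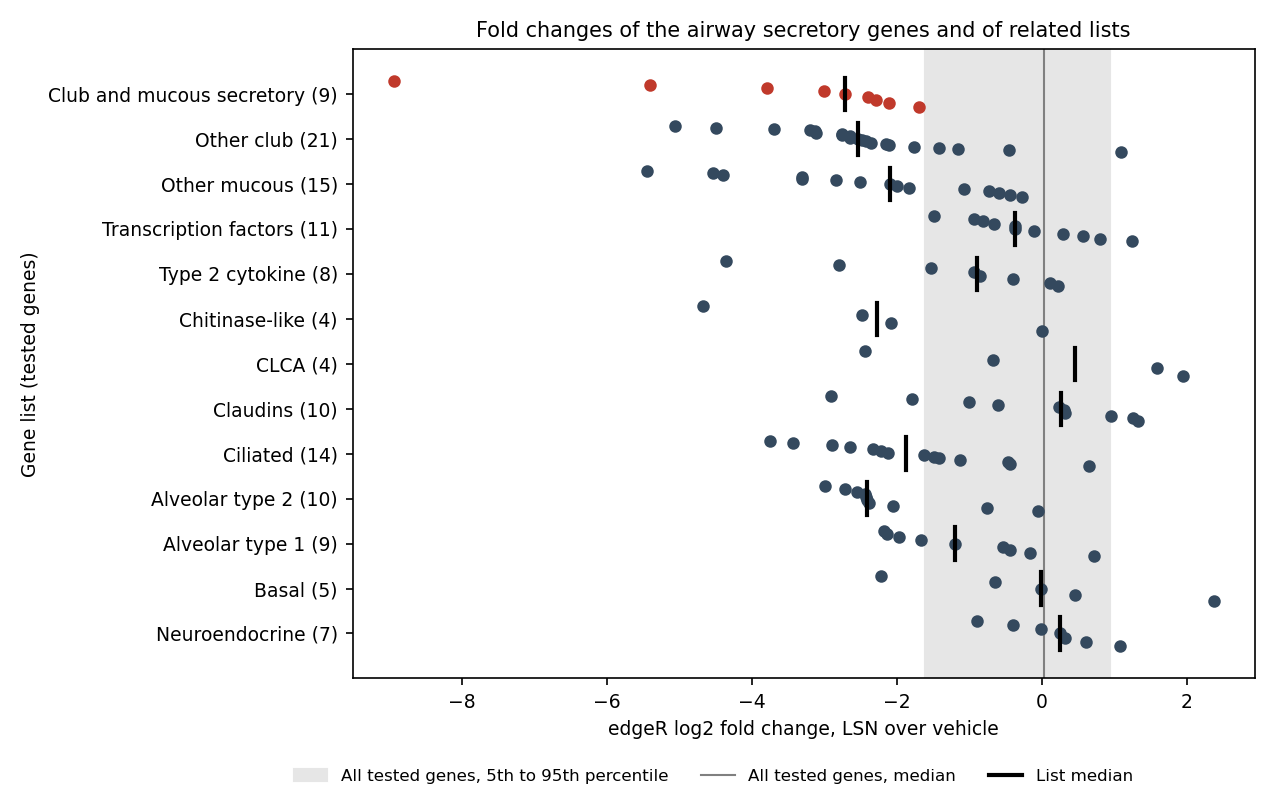
edgeR log2 fold change of LSN over vehicle tumours (x axis) for every tested gene of each list (rows, number tested in brackets), with list medians as bars and the 5th to 95th percentile of all tested genes in grey, from -1.61 to 0.94. All 9 secretory genes, chosen on this contrast, lie left of that band, with a median of -2.71. Medians left of the band are also those of other club (-2.53), alveolar type 2 (-2.41) and chitinase-like genes (-2.28). Those of other mucous (-2.09) and ciliated genes (-1.87) lie there too. Transcription factors, CLCA genes and claudins spread around 0.

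Markers of ciliated and alveolar cells also had lower sums in LSN tumours, over a narrower range, whereas those of basal cells overlapped between the groups. Ciliated cell markers, 14 genes, summed to 165, 208 and 154 CPM in LSN replicates 1, 2 and 3, against 423 and 303 CPM in vehicle replicates 1 and 2, a range of 2.74-fold. Within that list Sntn, Cdhr3 and Spag17, named after their values were seen, had 0, 1 and 1 counts in LSN replicate 2. In vehicle replicates 1 and 2 they had 142 and 77, 476 and 230, and 79 and 57 counts. The other ciliated markers had from 8 counts (Tekt1) to 1032 counts (Foxj1) in LSN replicate 2. Near absence in that tumour was thus not limited to the secretory genes. Alveolar type 2 markers, 10 genes, summed to 1462, 486 and 1075 CPM in LSN replicates 1, 2 and 3, against 2736 and 7067 CPM in vehicle replicates 1 and 2, a range of 14.5-fold. Alveolar type 1 markers, 9 genes, summed to 406, 497 and 359.8 CPM in LSN replicates 1, 2 and 3, against 638 and 800.3 CPM in vehicle replicates 1 and 2. In all 3 sums every LSN tumour lay below both vehicle tumours. Per CPM of ciliated cell markers, the 9 secretory genes had 6.41, 0.0309 and 2.04 CPM in LSN replicates 1, 2 and 3, against 14.1 and 9.16 CPM in vehicle replicates 1 and 2. Per CPM of alveolar type 2 markers they had 0.723, 0.0132 and 0.293 CPM in LSN replicates 1, 2 and 3, against 2.19 and 0.393 CPM in vehicle replicates 1 and 2. Both ratios were lowest in LSN replicate 2. The ratio to ciliated markers was lower in every LSN tumour. That to alveolar type 2 markers overlapped between the groups, with LSN replicate 1 above vehicle replicate 2. The ratios were not tested between the groups, because the 9 genes were chosen on that contrast. What part the other epithelial markers have in the difference between the groups was not tested.

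**Figure D4:**
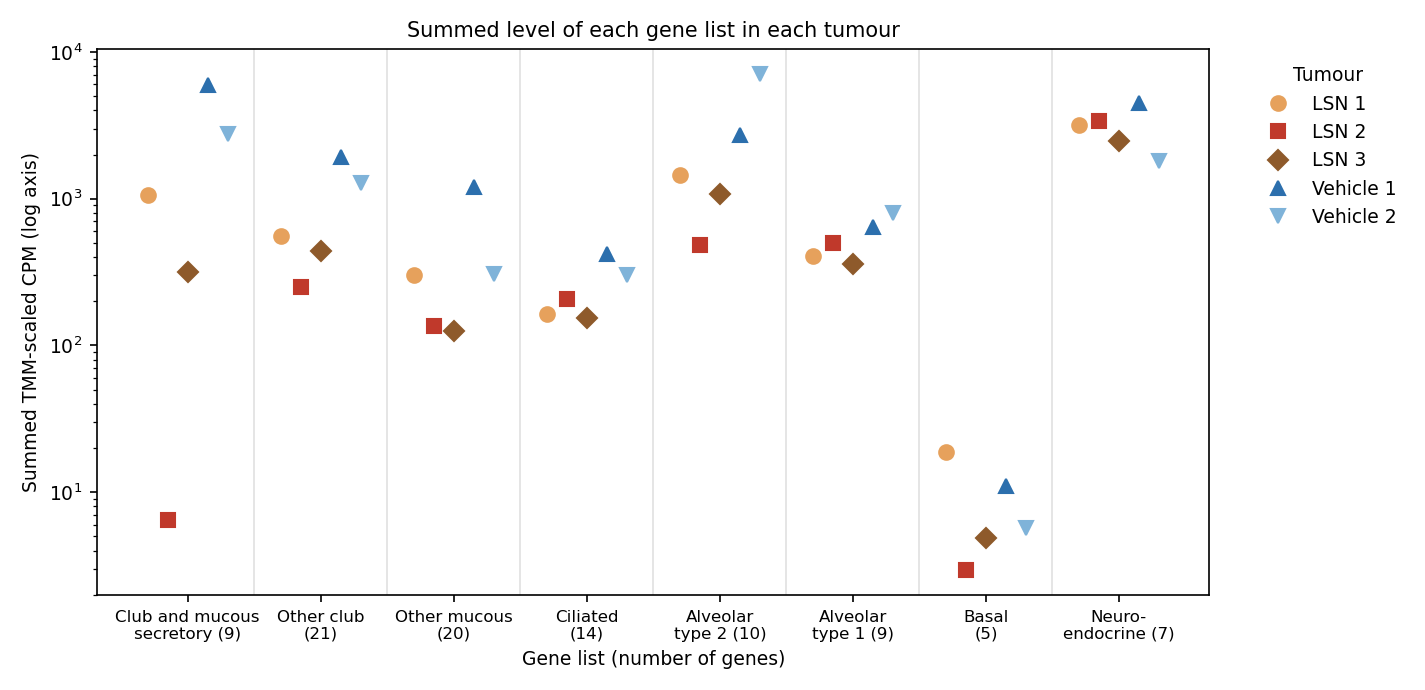
Summed TMM-scaled CPM (log axis) of each list of genes (columns, number of genes in brackets) in each tumour, with LSN 1 to 3 to the left of Vehicle 1 and 2. The 9 secretory genes span 6.43 to 5983 CPM, ciliated markers 154 to 423 CPM and alveolar type 2 markers 486 to 7067 CPM. Other club genes span 250 to 1923 CPM and other mucous genes 125 to 1204 CPM.

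Among 14 ciliated markers 13 had a log2 fold change below 0, with a median of -1.87, and 11 were lower in every LSN tumour, beside 10.4% of all tested genes. Dynlrb2, a dynein light chain, was at 1.33, 1.02 and 1.54 CPM in LSN replicates 1, 2 and 3, against 11.6 and 7.65 CPM in vehicle replicates 1 and 2, and DESeq2 called it (adjusted p = 7.35e-05). Tppp3, a tubulin-binding protein, was at 33.7, 33.5 and 14.4 CPM in LSN replicates 1, 2 and 3, against 92.3 and 75.3 CPM in vehicle replicates 1 and 2. Foxj1, the master factor of motile cilia, overlapped between the groups, at 20.1, 55.3 and 52.0 CPM in LSN replicates 1, 2 and 3, against 68.5 and 48.5 CPM in vehicle replicates 1 and 2. All 10 alveolar type 2 markers were below 0, with a median of -2.41, or -1.39 without vehicle replicate 2, and 8 were lower in every LSN tumour. Sftpc, the surfactant protein that defines type 2 cells, was at 779, 191 and 593 CPM in LSN replicates 1, 2 and 3, against 1528 and 3887 CPM in vehicle replicates 1 and 2. Cxcl15 and Lamp3 had log2 fold changes of -2.98 ± 0.65 (SE; DESeq2 adjusted p = 0.0132) and -2.41 ± 0.63 (SE). Type 1 markers had a median of -1.20, or -0.59 without vehicle replicate 2, with 8 of 9 below 0 and 5 lower in every LSN tumour. Ager, a receptor that marks type 1 cells, was at 81.6, 18.1 and 36.8 CPM in LSN replicates 1, 2 and 3, against 133 and 267 CPM in vehicle replicates 1 and 2, while Hopx and Pdpn had log2 fold changes of -1.97 and -1.67. By edgeR 0 genes of these 3 lists passed the adjusted threshold, with 7, 8 and 4 lower and 0 higher at an unadjusted p under 0.05, beside 3.21% of all tested genes lower. The 7 ciliated genes became 1 without vehicle replicate 1, 4 without vehicle replicate 2 and 3 when LSN replicate 3 was left out. The 8 alveolar type 2 and 4 type 1 genes each became 1 without vehicle replicate 2, and the type 1 genes 2 without LSN replicate 3. Basal cell markers, at 18.7, 2.95 and 4.87 CPM summed in LSN tumours and 11.1 and 5.69 CPM in vehicle tumours, were low everywhere, and Trp63 and Ngfr overlapped between the groups. Of the neuroendocrine markers, Syp was higher in every LSN tumour and Uchl1 lower, with log2 fold changes of 0.61 and -0.40. In the fit of all 5 tumours, 0 of the basal or neuroendocrine markers reached an unadjusted p under 0.05 by edgeR. The neuroendocrine median was 0.25, and 0.69 without vehicle replicate 1.

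The vehicle tumours differed from each other in which epithelial genes they held. Vehicle replicate 1 exceeded vehicle replicate 2 for 8 of the 9 secretory genes, with a median ratio of 2.81 and a range from 0.549 for Cldn10 to 44.8 for Bpifa1. Scgb1a1 differed 1.59-fold between them, far less than Clca1 or Bpifa1. Among alveolar type 2 markers 0 of 10 were higher in vehicle replicate 1, and the median ratio was 0.362. Ciliated markers were higher in vehicle replicate 1 for 13 of 14, with a median ratio of 1.78. Among genes above 3 counts in both, other club genes were higher there for 13 of 20, with a median ratio of 1.29. For other mucous genes this held for 9 of 15, with a median ratio of 2.17. The share of all tested genes higher in vehicle replicate 1 was not computed. With 1 tumour on each side these ratios have no replicate check.

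**Figure D5:**
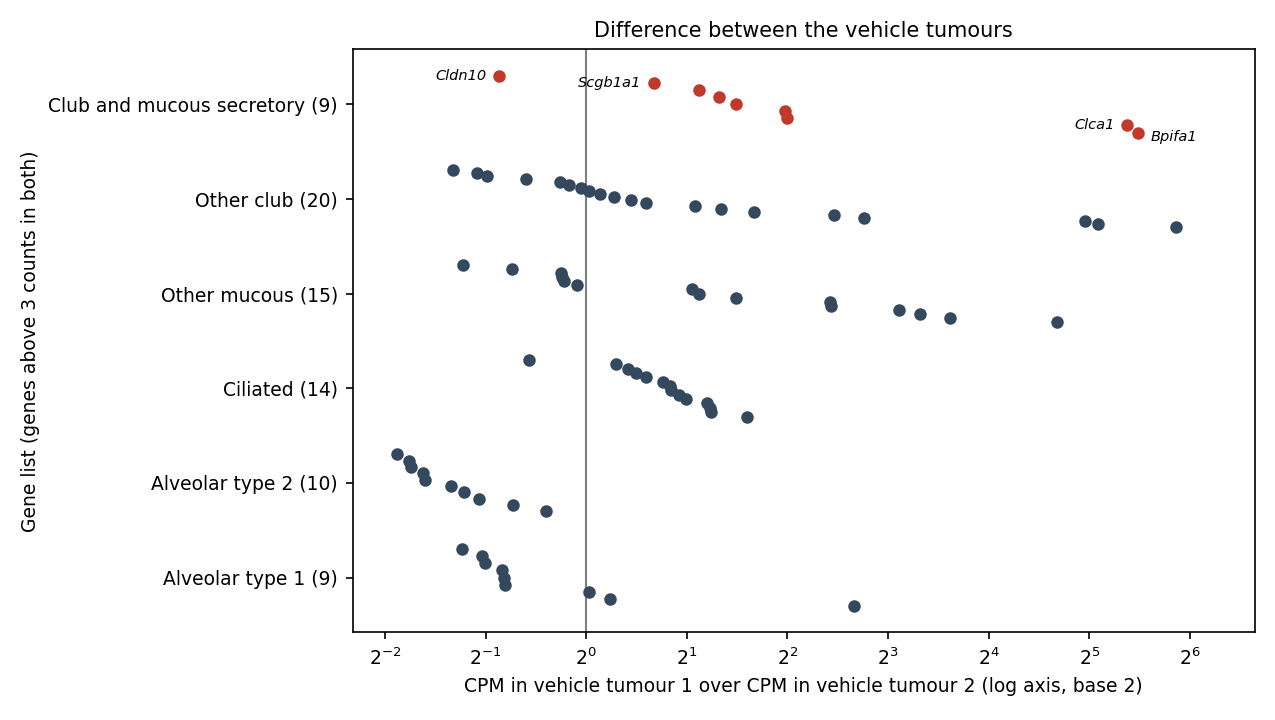
CPM in vehicle replicate 1 over that in vehicle replicate 2 (x axis, log scale) for each gene of 6 lists (rows) with more than 3 counts in both tumours. The secretory genes reach 44.8 for Bpifa1 and other club genes 58.1, while all 10 alveolar type 2 markers lie below 1.

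Genes with the pattern most like that of Scgb1a1 and Clca1 were ranked by the root mean square difference of log2 CPM, centred on each gene's mean, over the 5 tumours, among 14093 coding genes. For Scgb1a1 they were Ccdc153, a coiled-coil protein, at 0.92, Cntn2, a neuronal adhesion molecule, at 0.999, Retnla, a secreted resistin-like protein, at 1.07, Col11a1, a fibrillar collagen, at 1.20, and Eya1, a transcriptional coactivator, at 1.23. Among the secretory genes, Scgb3a1 was closer to Scgb1a1, at 0.80, and Clca1 the farthest, at 2.79. Ccdc153 had 63, 0 and 47 counts in LSN replicates 1, 2 and 3, against 765 and 388 counts in vehicle replicates 1 and 2, the same order of tumours as Scgb1a1. Retnla, which stands in the type 2 cytokine list, was at 57.1, 0.697 and 9.69 CPM in LSN replicates 1, 2 and 3, against 335 and 585 CPM in vehicle replicates 1 and 2. For Clca1 the nearest were Muc5ac at 1.44, Neurod1, a neuroendocrine transcription factor, at 1.65, Fcgbp at 1.71, Chil4 at 1.89 and Tff2, a trefoil peptide of mucus, at 2.01. Tff2 had 41, 0 and 25 counts in LSN replicates 1, 2 and 3, against 874 and 157 counts in vehicle replicates 1 and 2. Of these 5 neighbours, Muc5ac, Fcgbp and Tff2 stand in the mucous list, and Neurod1 is not an airway secretory gene. With a smaller prior count on the log scale, 3 of the 5 neighbours of Scgb1a1 and 4 of the 5 of Clca1 were named again.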

How the data were processed

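Per the labels' protocols, total RNA of 5 tumours was extracted on spin columns with a DNase step, made into libraries without strand information and sequenced as paired ends. The authors aligned reads with STAR to mm10 and ran DESeq2, per the same protocols. Not given in the sources used here are the counting program, the annotation and all versions. What the authors deposited are raw read counts per gene, with positions and gene lengths. Counts were tested with edgeR 4.0.16 in R 4.3.3 (quasi-likelihood F test, robust, TMM scaling, two-sided, minimum count of 10 and minimum total of 15), with DESeq2 1.42.0 as an alternative, and the procedure was tested on simulated data. An SE is the log2 fold change divided by the root of F. TPM was computed from the deposited lengths and log2 CPM with a prior count of 2. Groups come from the treatment label, and replicates were numbered in accession order. The labels name no batch.

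The 9 genes and all lists were chosen with earlier results of these data known. Named genes were the 9, 2 of each other list with the smallest p by edgeR, 10 set genes and the 5 nearest neighbours with a mean of at least 1 CPM. Alternatives were RLE scaling, total counts, no count filter, DESeq2, leaving out each tumour and a prior count of 0.5. One listed gene is not reported here and was left out after values were seen, for a reason unrelated to them.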

Additional observations from a re-analysis of the deposited data

How the results depend on the processing

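Scaling by RLE or by total counts, DESeq2 and a fit without the filter on low counts left the log2 fold changes of all 9 secretory genes below 0 and within 1 SD of their values. That SD is the spread of log2 CPM between tumours, pooled within groups. It ran from 1.36 for Cldn10 to 4.96 for Bpifa1, so the limit is wide and hard to miss. The log2 sum of the 9 genes differed by -4.97 with RLE scaling and -5.07 with total counts. Leaving out each tumour gave differences of -6.51 to -2.82 for the log2 sum, -4.74 to -1.89 for the median fold change and 7 to 9 genes lower in every LSN tumour. That last count has no share of all tested genes beside it, and fewer tumours make separation easier. Of 45 log2 fold changes of the 9 genes with a tumour left out, 42 stayed within 1 SD. The others were Muc5b at -6.45 and Clca1 at -11.6 without LSN replicate 1, and Clca1 at -4.52 without vehicle replicate 1. The sign turned for Bpifa1 alone, to 2.42 without vehicle replicate 1, a shift that still lay within its SD. edgeR called 0 genes under each of its settings, with 407 to 1181 at an unadjusted p under 0.05, whereas DESeq2 called 105, of which 90 were lower and 15 higher, including 3 other club cell genes and 1 each of the mucous, type 2 cytokine, ciliated and alveolar type 2 lists; the cause was not tested. The CLCA median was -0.69 without a count filter and 2.50 without vehicle replicate 1, where it had been 0.46. Of 60 medians of the other lists with a tumour left out, 54 stayed within 1 SD, here the median SD of the list's genes. Counted apart from this, 6 of the 60 changed sign, most of them among the 54. No paired analysis was possible because no label pairs a vehicle with an LSN tumour. With 2 and 3 tumours, a one-sided exact permutation test cannot go below 0.1, and in LSN replicate 2 counts near 0 limit every ratio.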
